A study of Mus musculus with 50 samples.

Results

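Fos, Fosb, Fosl2, Jun, Junb, Jund, Atf3, Dusp1, Ier2 and Zfp36 are 10 of the 55011 genes in the deposited count table, and were taken by symbol. They were followed across RNA-seq libraries of mouse regulatory T (Treg) cells, a CD4 lineage defined by the transcription factor Foxp3 that restrains immunity, and of their precursors in the thymus. The 50 libraries form 16 groups, and all mice are labelled male. Treg cells sorted as CD4+ Foxp3-GFP+ at 20 weeks of age came from lung, liver, ear skin, visceral adipose tissue (VAT, abdominal fat) and spleen, each in an arm labelled DT and an arm labelled PBS, with 3 libraries per group and 4 per VAT group. These mice had the Foxp3tm3(HBEGF/GFP)Ayr allele on the background B6.129(Cg), in which Foxp3+ cells carry the diphtheria toxin receptor, so that diphtheria toxin (DT) removes them. DT was given at 12 weeks of age for 3 days. The series text gives DT to littermates with and without the receptor, whereas the titles name the arms DT and PBS and the genotype label reads WT throughout, so the arms are called by their titles here. In the thymus of B6.Cg-Foxp3tm1Kuch/J mice, 3 libraries each were made at postnatal day 5 (D5), 12 (D12) and 49 (D49) from P2 cells, which had Foxp3 but no CD25, and from P1 cells, which had CD25 but no Foxp3. Each library came from 500 to 1000 double-sorted cells.

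Fos, Fosb and Fosl2 encode Fos proteins and Jun, Junb and Jund encode Jun proteins. A Fos and a Jun protein join through leucine zippers into AP-1, a transcription factor that carries signals from the T cell receptor, growth factors and stress to target genes. Most of these genes are immediate early genes: a MAP kinase signal raises their mRNA within minutes without new protein synthesis, and the mRNA is then quickly degraded. Atf3 encodes a related zipper protein induced by stress. Dusp1 encodes a phosphatase that inactivates the MAP kinases p38 and JNK, and Zfp36 encodes tristetraprolin, which binds AU-rich elements in mRNA and speeds their decay, so both are brakes on the same response. Warm enzymatic digestion of tissue is itself a known inducer of these genes. Per the series text each tissue was digested by a protocol of its own, so tissue and digestion cannot be told apart in any comparison between tissues below.

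The promoters and the AU-rich sites are shown because such sequences are among those through which these genes are known to be switched on and their mRNAs to be removed. RefSeq promoter windows (GRCm38.p6, 250 bases before to 50 after the start site) were matched for 9 of the 10 genes, all but Ier2. The Jund window (chr8:70697489-70697788, plus strand) ends before the GENCODE start of the gene at 70698949. It is counted among the 9, but may not be the promoter in use. Capitals mark matches to motifs searched on both strands: the cAMP response element TGACGTCA and its core TGACGT, the Jun-type site TGACATCA, the TATA box TATAAA and the CArG box bound by serum response factor. Position 0 is the start site. Fos (chr12:85473640-85473939, plus strand) has TGACGT at position -66 and TATAAA at position -33. Jun (chr4:95052173-95052472, minus strand) has TGACATCA at position -45. Atf3 (chr1:191183284-191183583, minus strand) has TGACGT on the opposite strand, read as ACGTCA, at position -8. Dusp1 (chr17:26508423-26508722, minus strand) has TGACGT at position -191 and the full TGACGTCA, which reads the same on both strands and so holds the core on each, at position -143. Zfp36 (chr7:28379179-28379478, minus strand) has a CArG box at position -58.
Fos promoter: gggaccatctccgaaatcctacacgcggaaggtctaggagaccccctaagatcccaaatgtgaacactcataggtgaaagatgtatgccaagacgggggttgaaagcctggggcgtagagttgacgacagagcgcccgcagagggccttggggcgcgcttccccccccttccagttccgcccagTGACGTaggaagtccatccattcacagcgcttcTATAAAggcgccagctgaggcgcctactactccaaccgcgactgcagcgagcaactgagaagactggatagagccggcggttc
Jun promoter: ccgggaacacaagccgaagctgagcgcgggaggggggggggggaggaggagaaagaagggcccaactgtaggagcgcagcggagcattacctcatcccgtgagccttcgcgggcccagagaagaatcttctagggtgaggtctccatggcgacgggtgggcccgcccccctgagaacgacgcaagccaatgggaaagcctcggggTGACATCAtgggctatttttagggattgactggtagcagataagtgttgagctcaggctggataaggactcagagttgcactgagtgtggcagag
Atf3 promoter: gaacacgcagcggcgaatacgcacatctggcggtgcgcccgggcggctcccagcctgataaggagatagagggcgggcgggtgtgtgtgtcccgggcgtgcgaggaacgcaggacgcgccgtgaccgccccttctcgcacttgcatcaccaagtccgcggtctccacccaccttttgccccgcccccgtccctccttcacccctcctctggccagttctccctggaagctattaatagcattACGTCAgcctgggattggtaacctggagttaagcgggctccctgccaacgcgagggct
Dusp1 promoter: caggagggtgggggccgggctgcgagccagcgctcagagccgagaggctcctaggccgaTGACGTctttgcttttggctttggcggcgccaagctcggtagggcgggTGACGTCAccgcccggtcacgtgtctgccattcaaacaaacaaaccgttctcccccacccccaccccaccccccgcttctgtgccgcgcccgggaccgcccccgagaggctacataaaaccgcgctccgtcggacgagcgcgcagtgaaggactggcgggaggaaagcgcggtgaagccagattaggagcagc
Zfp36 promoter: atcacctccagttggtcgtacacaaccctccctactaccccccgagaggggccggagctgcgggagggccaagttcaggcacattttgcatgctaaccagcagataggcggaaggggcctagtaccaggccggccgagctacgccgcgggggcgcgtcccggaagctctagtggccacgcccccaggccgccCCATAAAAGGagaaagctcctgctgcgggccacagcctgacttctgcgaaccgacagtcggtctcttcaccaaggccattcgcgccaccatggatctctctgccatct
Among all 32851 promoter windows of this length, TGACGTCA was present in 1.79%, TGACGT in 7.51%, TGACATCA in 3.62%, TATAAA in 13.6% and the CArG box in 1.63%. Of the 9 windows here, the numbers were 1, 3, 1, 2 and 1 in that order. TGANTCA, another site that AP-1 binds beside the Jun-type site TGACATCA, was in none of the 9 windows and in 7.81% of all windows. These matches are letters in a window and were not tested for binding. Sites more than 250 bases before the start site lie outside the windows, so a gene without a match here may still have the site.

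The AU-rich heptamer TATTTAT, read on the transcript strand of the longest annotated 3′ UTR, was present in 8 of the 10 genes (80.0%), against 27.6% of 21022 genes and 34.7% of the 13469 genes whose 3′ UTR had a length within the range of the 10. Junb and Ier2 had none. Capitals mark ATTTA and TATTTAT in windows from Fos (chr12:85477102-85477131, plus strand), Dusp1 (chr17:26506159-26506188, minus strand), Zfp36 (chr7:28376953-28376982, minus strand) and Fosl2 (chr5:32156870-32156899, plus strand), all of GRCm38.
Fos 3′ UTR site: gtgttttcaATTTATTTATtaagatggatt
Dusp1 3′ UTR site: ggagctggtcctTATTTATTTAacaccccc
Zfp36 3′ UTR site: ATTTAtgacgacttTATTTATtgtattaag
Fosl2 3′ UTR site: cATTTAttttatTATTTATtttaaatgttt
Fosl2, Dusp1 and Zfp36 each held 3 copies of the heptamer, Fos held 2, and Fosb, Jun, Jund and Atf3 held 1 each.

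Total counts per library ran from 2521078 to 6981037. Levels are CPM (counts scaled to a common library size) after TMM scaling over all 50 libraries, and a fold change comes from the fit of its own comparison, which scales its libraries separately, so ratios of printed levels can differ from it. Separate mice are not named for the libraries of a group, and each p-value therefore rests on a spread among libraries that may be technical. In RNA of sorted cells, fewer cells of a type and less RNA per cell cannot be told apart. Foxp3 averaged 254 to 405 CPM in the peripheral groups, 282 to 769 CPM in P2 and 8.01 to 13.9 CPM in P1, the order that the sort gates give. Other identity genes were less even in the thymus. Cd4 had 305 to 337 CPM in P1 at D12, against 676 to 716 CPM at D5 and 890 to 998 CPM at D49. In P2 at D49, Cd4 ran from 217 to 849 CPM and the Treg gene Ikzf2 from 98.2 to 330 CPM. Summed markers of macrophages and fibroblasts stood apart in VAT DT library 7 (114 and 566 CPM, against 1.54 to 15.5 and 0.865 to 8.88 CPM in the other VAT libraries). Other marker sums also moved with tissue. Hepatocyte markers summed to 9.1 to 28.6 CPM in liver against 0 to 1.3 CPM in spleen, and fibroblast markers to 16.4 to 28.5 CPM in ear skin against 0.799 to 8.04 CPM in spleen. Keratinocyte markers summed to 7.33 to 21.9 CPM in ear skin against 1.76 to 11.3 CPM in spleen, and lung PBS library 1 had 68 CPM of macrophage markers against 6.28 and 15.7 CPM in the other lung PBS libraries. P2 libraries 2 and 3 at D49 had 27729 and 28765 detected genes and summed macrophage markers of 83.5 and 107 CPM, against 19951 genes and 23.2 CPM in library 1. P1 libraries at D12 had 27911 to 31478 detected genes. The part of these differences in the results was not tested.

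In the PBS arm, 8 of the 10 genes were called higher in lung Treg cells than in spleen Treg cells, 8 in liver, 8 in ear skin and 10 in VAT, and none was called lower (edgeR quasi-likelihood test, two-sided, Benjamini-Hochberg adjusted p under 0.05 over 17731 genes). Over all genes tested, 8.14% were called higher in lung, 9.15% in liver, 11.1% in ear skin and 8.67% in VAT. The median log2 fold change of the 10 was 2.94 in lung, 4.56 in liver, 3.93 in ear skin and 5.19 in VAT, beside 0.04, -0.02, 0.14 and -0.06 over all genes. All 10 passed the filter on low counts, but Fosb and Atf3, with at most 1.3 and 0.905 CPM in any spleen library, passed through the other tissues and so had to differ. Of the other 8, the counts called higher were 6, 6, 6 and 8, and their median log2 fold change was 2.58, 3.87, 3.01 and 4.67. These comparisons share the same 3 spleen libraries. The 10 genes together took 0.36 to 0.564% of all counts in lung libraries, 0.564 to 0.842% in liver, 0.702 to 0.831% in ear skin and 0.739 to 2.01% in VAT, against 0.0523 to 0.0916% in spleen.

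**Figure D1:**
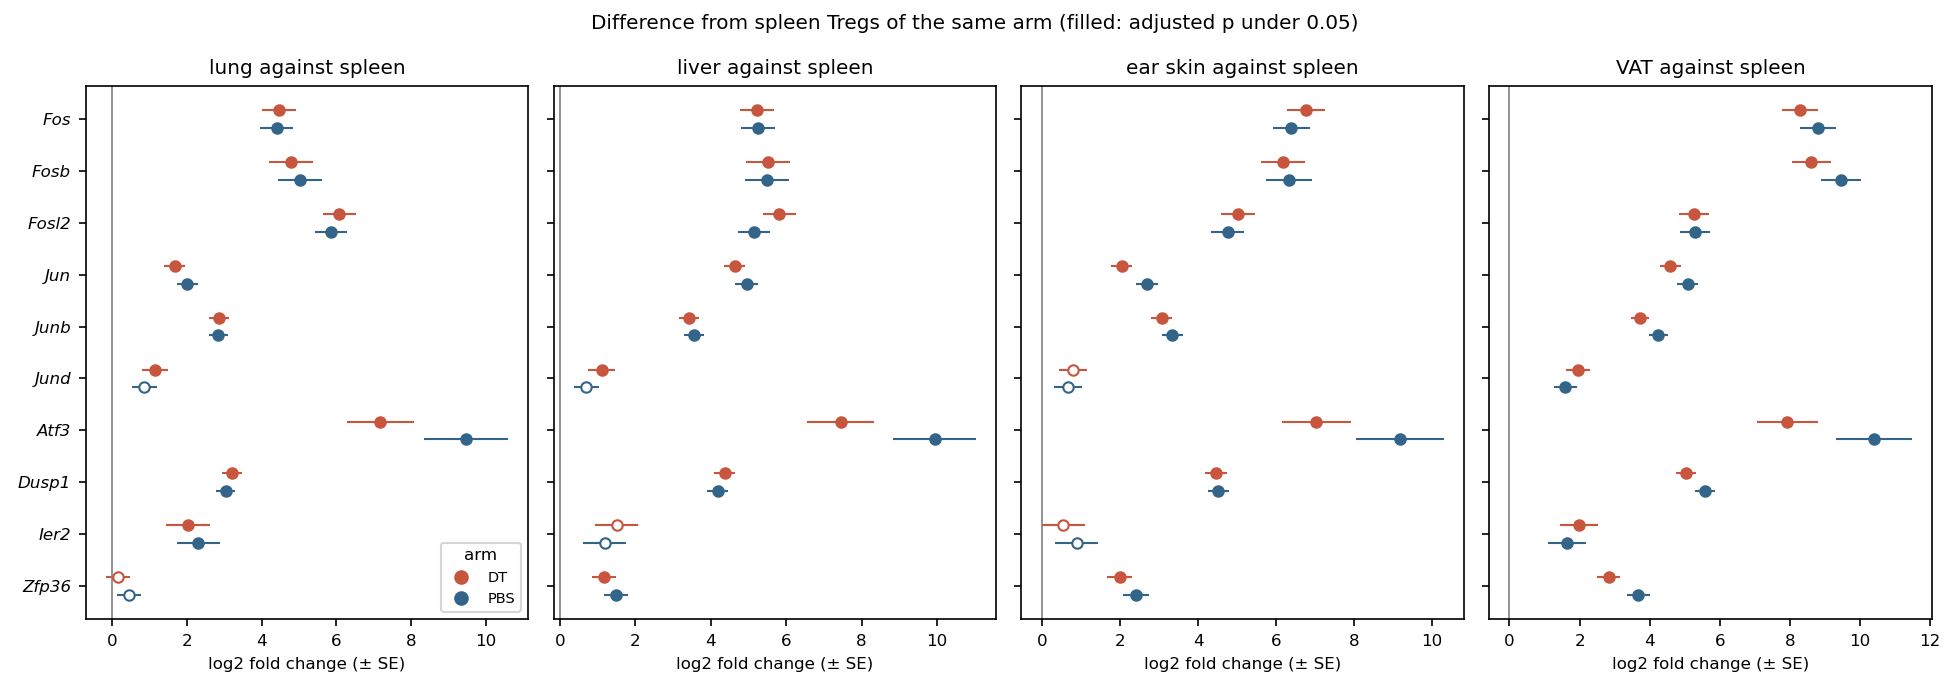
Log2 fold change (± SE) of each gene in lung, liver, ear skin and VAT against spleen of the same arm, with DT above PBS in each row and filled points for an adjusted p under 0.05 (edgeR). Every point lies above 0, Fos and Fosb reach their highest values in VAT, and Jund, Ier2 and Zfp36 hold all open points.

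Fos, the archetypal immediate early gene, was low in spleen Treg cells and highest in VAT Treg cells. In the PBS arm it had 117, 87.1 and 153 CPM in lung, 229, 282 and 137 CPM in liver, 286, 548 and 508 CPM in ear skin and 3200, 3190, 2960 and 924 CPM in VAT, against 8.09, 4.7 and 4.49 CPM in spleen. Every library of the other tissues stood above every spleen library, every VAT library above every other library of the arm, and every ear skin library above every liver library. Against spleen its log2 fold change was 4.4 ± 0.45 in lung (edgeR adjusted p = 9.05e-09), 5.25 ± 0.46 in liver (2.88e-10), 6.39 ± 0.48 in ear skin (4.69e-12) and 8.80 ± 0.51 in VAT (2.8e-14), the last a 447-fold difference. In the order VAT, ear skin, liver, lung, VAT exceeded ear skin by 2.41 ± 0.36 (adjusted p = 1.59e-05, with 13.8% of all genes called in either direction). Of these called genes 57.7% were higher in VAT, and 45.3% with relative log expression size factors, which moved the median of all genes by -0.12. Ear skin exceeded liver by 1.14 (adjusted p = 0.0361, 11.5% of all genes called), a call that was lost without ear skin library 2 or 3 or liver library 1 or 3 (adjusted p 0.109 to 0.183) and in limma voom (0.0815). Liver and lung did not differ by the test (0.86, adjusted p = 0.362, 0.626% of all genes called).

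Fosb, whose protein pairs with Jun proteins as Fos does, was near 0 in spleen. The PBS libraries had 19.0, 28.6 and 16.2 CPM in lung, 29, 25.9 and 33.3 CPM in liver, 37.5, 62.4 and 47.9 CPM in ear skin and 604, 550, 526 and 178 CPM in VAT, against 0.647, 0.587 and 0.71 CPM in spleen. No tissue library overlapped the spleen libraries. The VAT libraries held 9125 Fosb counts and the spleen libraries 10, a ratio after scaling to library size of 699 (exact 95% interval 380 to 1460, counting error only). In the same terms the ratio was 30.5 in lung (16.3 to 64.4), 42.0 in liver (22.6 to 88.4) and 85.6 in ear skin (46.2 to 180). VAT exceeded ear skin by 3.13 ± 0.37 on the log2 scale (edgeR adjusted p = 2.96e-07), whereas ear skin against liver (0.84, adjusted p = 0.155, but 0.0254 with only the libraries compared) and liver against lung (0.47, adjusted p = 0.761) did not pass.

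Fosl2, which encodes Fra-2, had another order of tissues. In the PBS arm it had 595, 324 and 609 CPM in lung, 287, 350 and 311 CPM in liver, 225, 211 and 245 CPM in ear skin and 392, 284, 539 and 189 CPM in VAT, against 16.3, 2.15 and 8.75 CPM in spleen. Lung had the highest mean and the other tissues overlapped it or one another. The log2 fold change against spleen was 5.85 ± 0.43 in lung (edgeR adjusted p = 1.44e-11), 5.15 ± 0.42 in liver (7.02e-11), 4.76 ± 0.42 in ear skin (1.71e-10) and 5.29 ± 0.42 in VAT (2.18e-11). VAT against lung (-0.56 ± 0.32, adjusted p = 0.234, 17.7% of all genes called) and VAT against liver (0.13 ± 0.32, adjusted p = 0.846, 12.0% of all genes called) did not pass. Limma voom called VAT lower than lung (-0.69, adjusted p = 0.041), as did edgeR without the filter on low counts (-0.56, 0.0411). Ear skin was lower than lung (-1.08 ± 0.34, adjusted p = 0.0297, 14.3% of all genes called). That call was lost without any 1 ear skin library or lung library 1 or 3 (adjusted p 0.0672 to 0.119), and in DESeq2 (0.0591).

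The make-up of the Fos family therefore varied between tissues when levels were set per kilobase of exon. Fos made up 87.9 to 92.9% of the summed CPM per kilobase of Fos, Fosb and Fosl2 in the 8 VAT libraries, 80.6 to 89.8% in ear skin, 56.6 to 74.8% in liver and 43.5 to 49.8% in lung, against 65.2 to 86.3% in spleen. Fosl2 made up 44.6 to 53.8% in lung and 1.99 to 5.55% in VAT. The lung and VAT libraries did not overlap in either share, in either arm. These shares are of levels per length and were not tested.

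**Figure D2:**
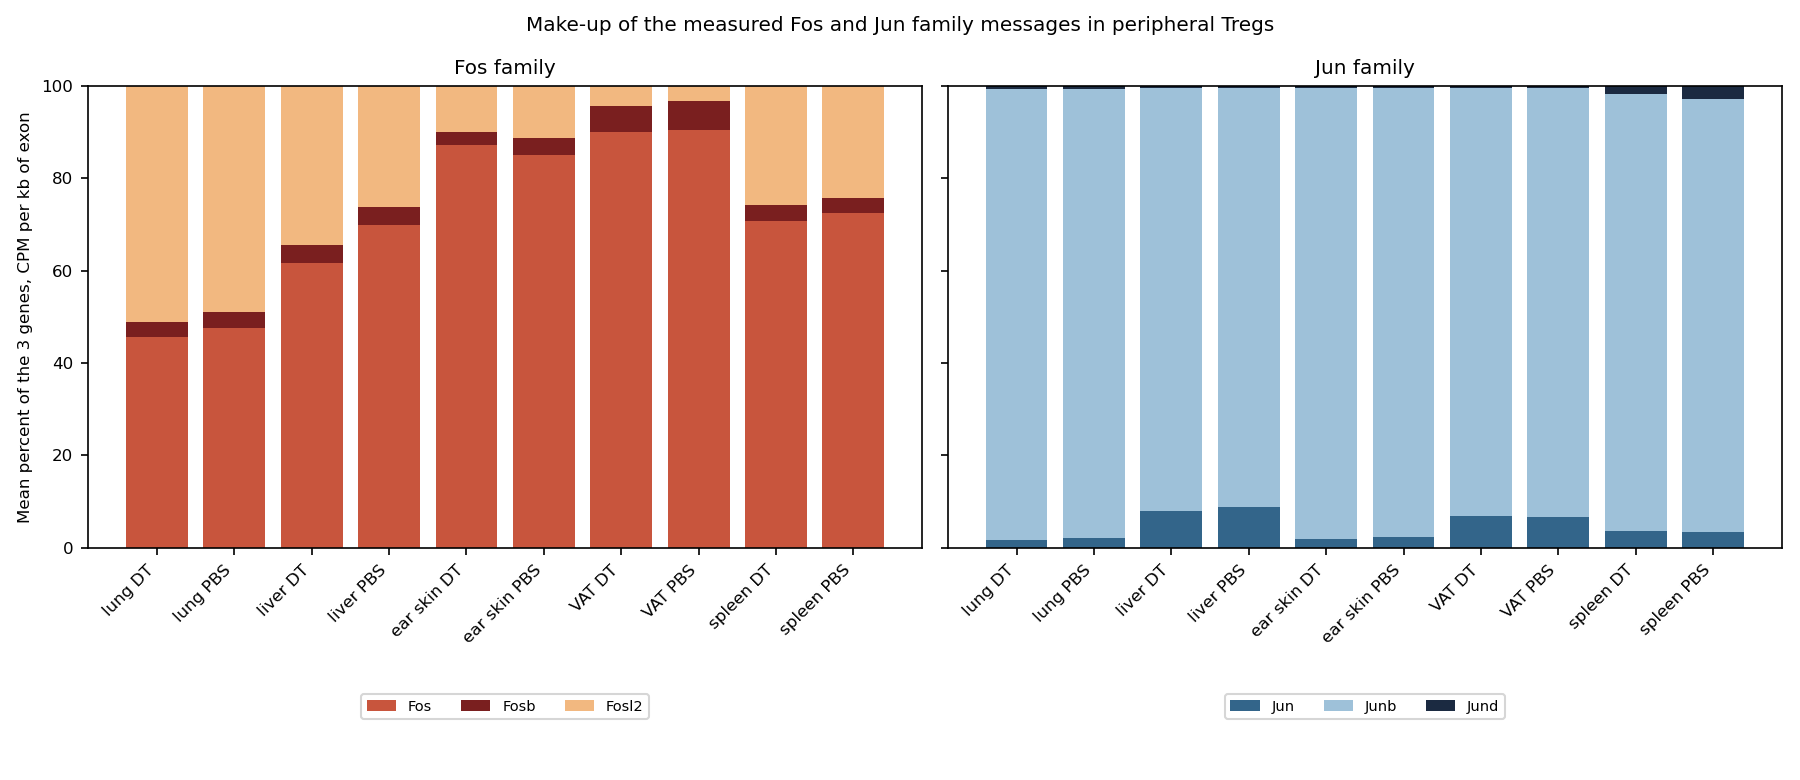
Stacked bars of the mean share (%) of each gene in the summed CPM per kilobase of exon, for Fos, Fosb and Fosl2 and for Jun, Junb and Jund, in the peripheral groups with DT left of PBS. Fosl2 takes about as much as Fos in lung and little in VAT, and Junb takes nearly all of the Jun family in each group, with Jund as deposited despite its overlap with an antisense gene.

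Junb, which encodes a Jun protein that pairs with Fos or with the T cell factor BATF, was the most abundant of the Jun genes per length in every tissue. Its PBS libraries had 2200, 1870 and 2580 CPM in lung, 3390, 3980 and 3640 CPM in liver, 3550, 2380 and 3000 CPM in ear skin and 6410, 6230, 8210 and 3130 CPM in VAT, against 296, 351 and 311 CPM in spleen. All tissue libraries exceeded all spleen libraries, and VAT library 4 lay within the ear skin range and below the liver range. Against spleen, the log2 fold change of Junb ran between 2.84 ± 0.26 in lung (edgeR adjusted p = 7.28e-10) and 4.25 ± 0.27 in VAT (1.41e-13), with 3.56 ± 0.26 in liver (7.58e-12) and 3.34 ± 0.26 in ear skin (1.31e-11). VAT exceeded lung by 1.41 ± 0.23 (adjusted p = 3.05e-05) and ear skin by 0.91 ± 0.23 (0.00675; 0.0543 without ear skin library 2). VAT against liver (0.69 ± 0.23, adjusted p = 0.0414) was lost without any of the 3 liver libraries or VAT library 1, 2 or 3 (adjusted p 0.101 to 0.225). Per kilobase of exon, Junb made up 89.0 to 98.1% of the Jun family in the peripheral libraries, with Jund counted as deposited.

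Jun, which encodes c-Jun, divided the tissues in pairs. It had 77.5, 50 and 67.1 CPM in PBS lung, 482, 661 and 357 CPM in liver, 108, 57.4 and 131 CPM in ear skin and 615, 674, 565 and 379 CPM in VAT, against 12.6, 20.0 and 17.5 CPM in spleen. Liver and VAT overlapped each other, lung and ear skin overlapped each other, and the pairs did not overlap. For Jun the log2 fold change against spleen was 4.95 ± 0.30 in liver (edgeR adjusted p = 1.1e-13) and 5.09 ± 0.30 in VAT (2.8e-14), and 2.01 ± 0.28 in lung (2.18e-06) and 2.68 ± 0.28 in ear skin (5.6e-09). Liver exceeded lung by 2.94 (adjusted p = 3.19e-08), VAT exceeded ear skin by 2.41 ± 0.25 (2.89e-08), and ear skin was below liver by -2.27 on the log2 scale (1.38e-07). VAT against liver (0.14 ± 0.23, adjusted p = 0.765) and ear skin against lung (0.67 ± 0.26, 0.0774) did not pass, although ear skin against lung was called without ear skin library 2 (0.92, 0.018) and in DESeq2 (0.73, 0.0266). Jun thus took 6.58 to 10.7% of the Jun family per kilobase in liver libraries and 4.4 to 9.18% in VAT, beside 1.38 to 2.46% in lung and 1.53 to 3.04% in ear skin, against 2.85 to 3.95% in spleen.

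Jund, the Jun gene known for a steady level rather than induction, was low in every tissue. It had 18.3, 20.8, 24.7 and 13 CPM in PBS VAT against 10, 4.31 and 5.2 CPM in spleen, and the 2 groups did not overlap. VAT exceeded spleen by 1.59 ± 0.33 on the log2 scale (edgeR adjusted p = 0.000594). Lung (0.86 ± 0.34, adjusted p = 0.0894), liver (0.70 ± 0.34, 0.173) and ear skin (0.66 ± 0.35, 0.172) did not pass, although lung was called without spleen library 1 (1.26, 0.0274). Jund is the least secure of the counts, since 52.6% of its exon bases overlap the antisense gene Gm11175 and the strand setting of the counting is not given in the sources used here. Gm11175 had 0 CPM in every group. If reads in the overlap were left uncounted, Jund and its share of the Jun family are understated and the shares of Jun and Junb overstated, and this was not tested. The overlap with another gene was 7.28% for Jun, 7.52% for Junb, 3.60% for Zfp36 and 0.332% for Dusp1.

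Atf3, the stress-induced zipper gene, was at the detection limit in spleen and present elsewhere. It had 91.9, 41.9 and 60.4 CPM in PBS lung, 85.3, 136 and 46.8 CPM in liver, 49.9, 33.1 and 67.3 CPM in ear skin and 186, 108, 141 and 63.8 CPM in VAT, against 0, 0.196 and 0 CPM in spleen. The spleen libraries held 1 Atf3 count in all. VAT held 2471 counts, a ratio after scaling to library size of 1890 (exact 95% interval 339 to 74700, counting error only), and the ratio was 985 in lung (176 to 39000), 1330 in liver (238 to 52500) and 883 in ear skin (158 to 34900). None of the pairs among lung, liver, ear skin and VAT passed the test for Atf3 with all peripheral libraries in the fit. VAT against ear skin (1.22 ± 0.52, edgeR adjusted p = 0.107) was called with only the libraries compared (1.15, 0.0295). It was also called without VAT libraries PBS 4 and DT 8, the lowest of their groups for Atf3 (1.41, 0.0473).

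Dusp1, the MAP kinase phosphatase, had the smallest adjusted p of the 10 genes in VAT. It had 1030, 721 and 911 CPM in PBS lung, 1570, 2310 and 2020 CPM in liver, 2520, 2050 and 2470 CPM in ear skin and 5300, 5420, 7130 and 3040 CPM in VAT, against 127, 92.6 and 116 CPM in spleen. Lung stood apart below liver and ear skin, which overlapped, and VAT stood above them all. The log2 fold change against spleen was 3.04 ± 0.26 in lung (edgeR adjusted p = 2.87e-10), 4.18 ± 0.28 in liver (5.35e-13), 4.52 ± 0.28 in ear skin (8.15e-14) and 5.57 ± 0.29 in VAT (3.52e-15). VAT exceeded ear skin by 1.05 ± 0.23 (adjusted p = 0.00208), ear skin did not differ from liver by the test (0.34, 0.402), and ear skin exceeded lung by 1.48 ± 0.25 (4.31e-05). Liver against lung (1.14, adjusted p = 0.0172) was lost without liver library 2 or 3 or any lung library (0.0538 to 0.112).

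Zfp36, which encodes tristetraprolin, followed the order of Fos, with smaller steps from liver to ear skin and from ear skin to VAT. The PBS libraries had 104, 82.3 and 123 CPM in lung, 187, 209 and 242 CPM in liver, 438, 297 and 403 CPM in ear skin and 1030, 1150, 1360 and 382 CPM in VAT, against 63.4, 89.5 and 79.7 CPM in spleen. Lung overlapped spleen, and the other tissues did not. The log2 fold change against spleen was 0.46 ± 0.32 in lung (edgeR adjusted p = 0.379), 1.49 ± 0.32 in liver (0.0011), 2.41 ± 0.33 in ear skin (8.59e-07) and 3.68 ± 0.34 in VAT (5.21e-10). VAT exceeded ear skin by 1.27 ± 0.30 (adjusted p = 0.00371), ear skin against liver missed the threshold (0.92, 0.0509, called in DESeq2 with 0.99 and 0.0156), and liver against lung did not pass (1.03, 0.131, called in DESeq2 with 1.02 and 0.0412).

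Ier2, an immediate early gene of little known function, varied widely within groups. It had 484, 342 and 653 CPM in PBS lung, 70.1, 287 and 326 CPM in liver, 200, 146 and 172 CPM in ear skin and 101, 239, 719 and 201 CPM in VAT, against 56.9, 117 and 130 CPM in spleen. Lung and ear skin did not overlap spleen, whereas liver and VAT did. Lung exceeded spleen by 2.31 ± 0.58 on the log2 scale (edgeR adjusted p = 0.00463) and VAT by 1.64 ± 0.55 (0.0374), while liver (1.19 ± 0.57, 0.156) and ear skin (0.88 ± 0.56, 0.264) did not pass. The VAT call rested on single libraries, with 0.79 (adjusted p = 0.333) without VAT library 3, 1.33 (0.193) without spleen library 1 and 1.77 (0.0673) without spleen library 2, and it was not made by limma voom (1.2, 0.176) or with only the libraries compared (1.59, 0.111). No pair among lung, liver, ear skin and VAT passed for Ier2 with all peripheral libraries in the fit. Ear skin against lung (-1.43 ± 0.56, adjusted p = 0.0888) was called with only the libraries compared (-1.4, 0.000431), and VAT against lung (-0.67 ± 0.51, 0.396) without VAT library 3 (-1.5, 0.035).

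**Figure D3:**
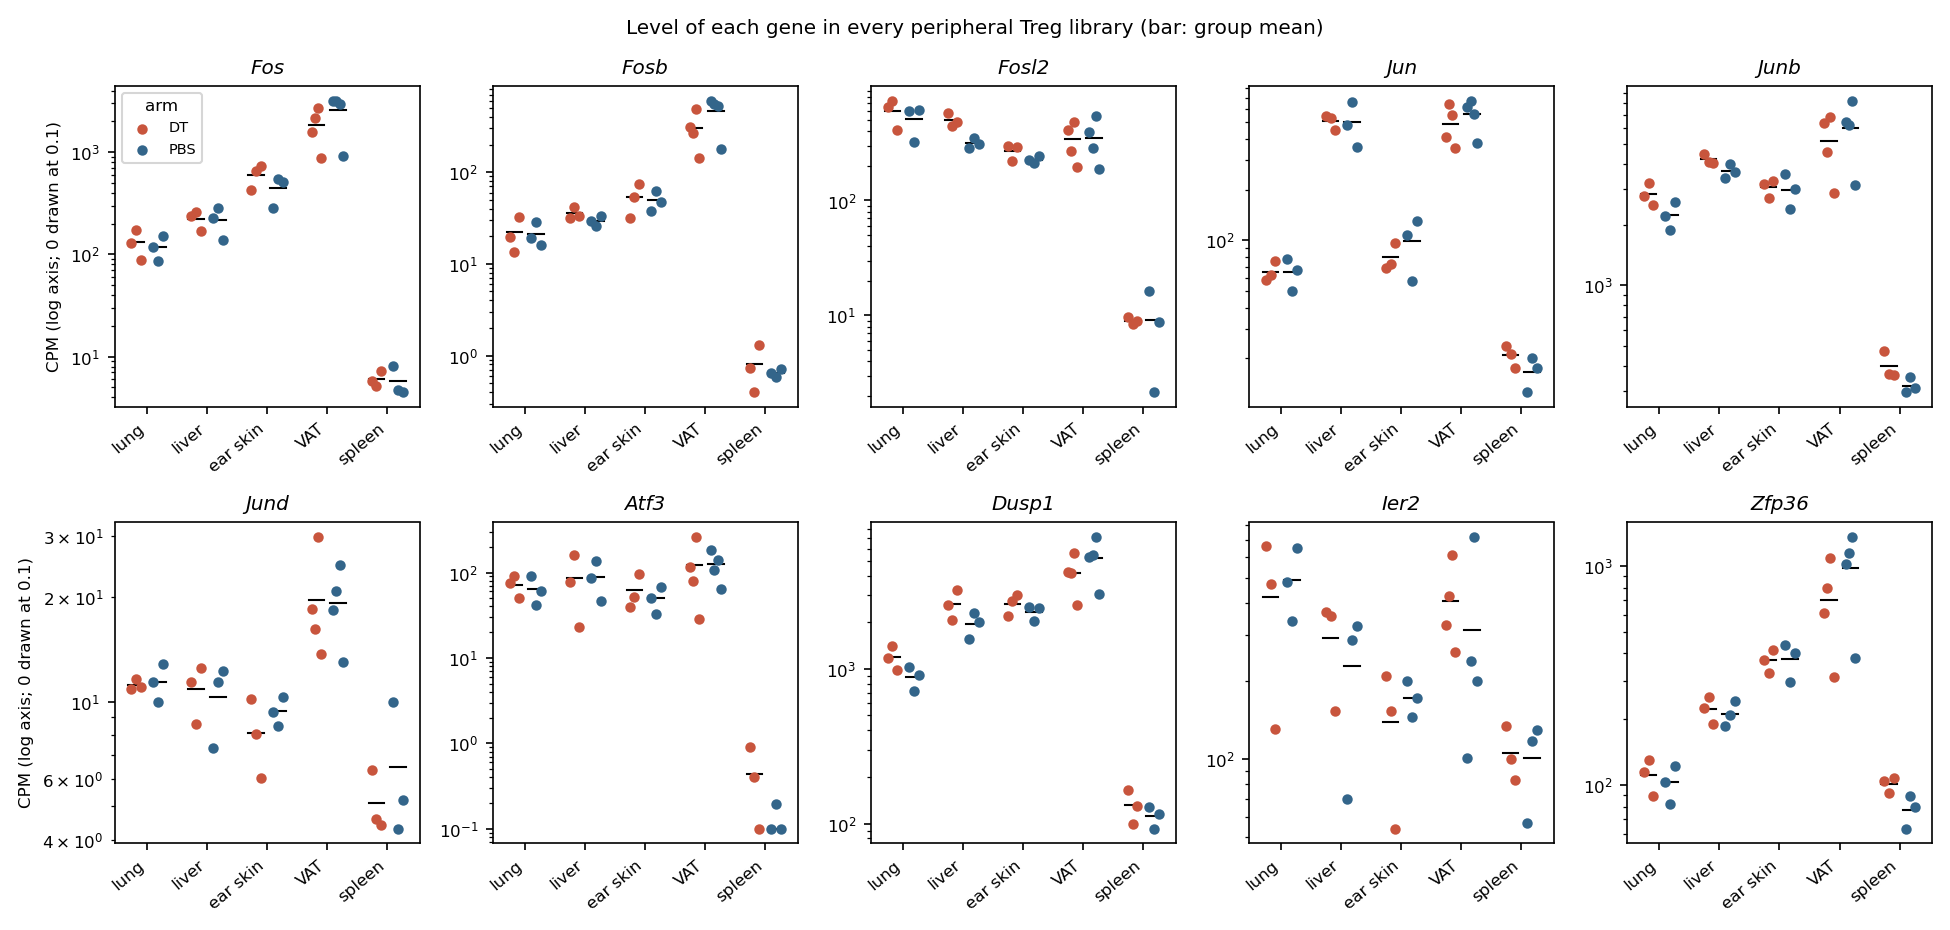
CPM of each of the 10 genes on a log axis in lung, liver, ear skin, VAT and spleen, with DT (red) left of PBS (blue), 1 point per library, a bar at the group mean and 0 drawn at 0.1. The spleen libraries lie lowest for Fos, Fosb, Fosl2, Jun, Junb, Atf3 and Dusp1.

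The DT arm gave the same test on other libraries of each tissue, with 3 spleen libraries of its own. Here 9 genes were called higher in lung, 9 in liver, 8 in ear skin and 10 in VAT, none lower, against 8.48%, 8.18%, 10.5% and 5.70% of all genes called higher. Apart from Fosb and Atf3 the counts were 7, 7, 6 and 8 of 8, with median log2 fold changes of 2.44, 3.90, 2.55 and 4.16. The median of all 10 was 3.04, 4.50, 3.76 and 4.81 in that order of tissues, beside 0.01, 0.01, 0.13 and 0.03 over all genes. Of the genes called in ear skin of this arm, 47.5% were higher, and 61.0% with relative log expression size factors, which moved the median of all genes by 0.15 and changed no call of the 10 genes. Fos had 130, 175 and 89.0 CPM in DT lung, 236, 261 and 169 CPM in liver, 428, 649 and 736 CPM in ear skin and 1580, 2180, 2700 and 873 CPM in VAT, against 5.79, 5.19 and 7.30 CPM in spleen. The tissues kept the order of the PBS arm with no overlap with spleen, and the log2 fold change ran between 4.47 ± 0.45 in lung (edgeR adjusted p = 8.25e-09) and 8.28 ± 0.51 in VAT (1.87e-13). Jun had 58.3, 62.6 and 75.3 CPM in DT lung, 545, 530 and 450 CPM in liver, 69, 72.1 and 96.5 CPM in ear skin and 409, 646, 553 and 355 CPM in VAT, against 23.7, 21.2 and 17.5 CPM in spleen. Liver and VAT again lay above lung and ear skin without overlap.

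Fosl2 in the DT arm had 652, 739 and 412 CPM in lung, 579, 440 and 480 CPM in liver, 295, 219 and 292 CPM in ear skin and 411, 271, 477 and 197 CPM in VAT, against 9.78, 8.39 and 8.86 CPM in spleen, with the highest mean again in lung. Dusp1 had 1170, 1410 and 989 CPM in lung, 2610, 2070 and 3260 CPM in liver, 2210, 2750 and 2990 CPM in ear skin and 4230, 4190, 5660 and 2580 CPM in VAT, against 165, 98.8 and 130 CPM in spleen. No tissue library of either gene overlapped spleen. Atf3 had 7 counts in the spleen libraries and 2011 in VAT, a ratio after scaling to library size of 223 (exact 95% interval 108 to 556, counting error only). Junb exceeded spleen by 2.86 to 3.73 on the log2 scale. Zfp36 was called in liver (1.16 ± 0.32, adjusted p = 0.0112), ear skin (1.99 ± 0.32, 2e-05) and VAT (2.83 ± 0.32, 9.52e-08) and not in lung (0.15 ± 0.32, 0.822).

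The weaker calls of the DT arm rested on single libraries. Zfp36 in liver was lost without liver library 5 (1.05, edgeR adjusted p = 0.0564) or spleen library 5 (1.1, 0.0578). Jund was called in lung (1.14 ± 0.35, 0.0235), liver (1.1 ± 0.35, 0.0333) and VAT (1.95 ± 0.34, 0.000103) and not in ear skin (0.79 ± 0.36, 0.11). The liver call was lost without any 1 of the 6 libraries (0.0513 to 0.137) and the lung call without any lung library or spleen library 5 or 6 (0.0545 to 0.104). Ier2 was called in lung (2.03 ± 0.58, 0.0134) and VAT (1.98 ± 0.55, 0.0179) and not in liver (1.5 ± 0.57, 0.0786, called with only the libraries compared with 1.52 and 0.00153, and without liver library 6 with 1.81 and 0.0448) or ear skin (0.54 ± 0.56, 0.506). The lung call was lost without lung library 4 or spleen library 5 or 6 (0.0549 to 0.0919), and the VAT call without VAT library 7 or spleen library 5 or 6 (0.0631 to 0.096).

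Within VAT, single libraries moved across most of the 10 genes together. VAT PBS library 4 was the lowest of its group for Fos, Fosb, Fosl2, Jun, Junb, Jund, Atf3, Dusp1 and Zfp36, and not for Ier2, which was lowest in library 1. VAT DT library 8 was the lowest of its group for 10 of 10 genes. Without both of these libraries, 38 of the 38 results called with VAT in the main fits were still called. All 38 had VAT higher, so leaving out its lowest libraries mostly widens the differences, and the outcome is no test of these calls. That alternative was chosen after seeing the data. VAT DT library 7, the one with the fibroblast and macrophage markers, was highest of its group for Fos, Fosb, Junb, Jund, Atf3, Dusp1, Ier2, Zfp36 and Fosl2, and for Jun library 6 was highest. Summed neutrophil markers were also high in VAT through Mmp9 alone (209 to 379 CPM in DT and 101 to 501 CPM in PBS VAT, against 12.9 to 16.1 CPM in PBS spleen), with S100a8, S100a9, Ly6g, Retnlg and Csf3r at 1.98 CPM or less in VAT. Summed mesothelial markers were high through Lrrn4 alone (28.8 to 63.5 CPM in DT and 117 to 181 CPM in PBS VAT, against 5.91 to 8.61 CPM in PBS spleen), with Msln, Upk3b, Wt1 and Upk1b at 1.53 CPM or less in VAT.

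**Figure D4:**
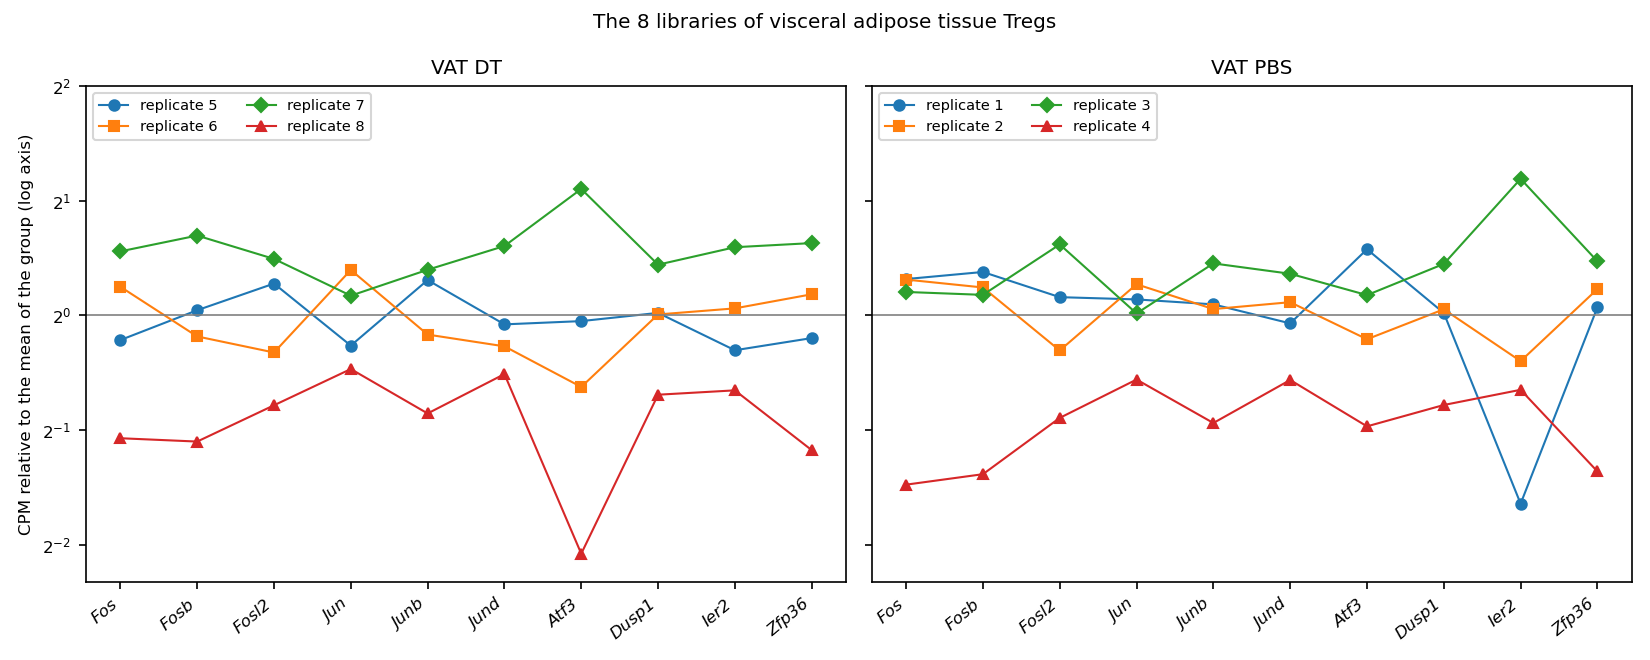
CPM of each gene in the 4 DT (left) and 4 PBS (right) VAT libraries, divided by the mean of the group. DT library 8 and PBS library 4 lie below the other libraries of their groups for nearly all genes, and Ier2 in the PBS group departs from this.

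DT and PBS were compared within each tissue. None of the 48 tests of the 10 genes over 5 tissues was called (edgeR, lowest adjusted p 0.572). There were 3 at an unadjusted p under 0.05, and DESeq2 and limma voom called 0 each. Of all genes, 358 of 12453 in spleen, 412 of 12046 in lung and 525 of 11962 in liver had such an unadjusted p. The numbers were 1164 of 12653 in ear skin and 955 of 12067 in VAT. Over all genes, 0.00% were called in spleen, 0.00% in lung, 0.00% in liver, 0.411% in ear skin and 0.124% in VAT. The log2 fold changes of the 10 genes lay between -0.56 and 0.64. The highest was Fosl2 in liver (0.64 ± 0.15), with 579, 440 and 480 CPM in DT against 287, 350 and 311 CPM in PBS. It was not called, and the lowest edgeR adjusted p of the 10 genes in liver was 0.759. The difference between tissues in the effect of the arm, an interaction term, was called for none of the 10 genes in 40 tests, against 0.00% of all genes in lung, 0.00% in liver, 0.0451% in ear skin and 0.0169% in VAT. There was 1 at an unadjusted p under 0.05, and DESeq2 and limma voom called 0 each. Of all 17731 genes, 801 in lung, 940 in liver, 1127 in ear skin and 1160 in VAT had such an unadjusted p for this term. Without the filter on low counts, edgeR called Fos (-0.46, adjusted p = 0.0155), Fosb (-0.59, 0.0049) and Zfp36 (-0.46, 0.0489) lower in DT than in PBS in VAT, where the libraries of the arms overlapped for each gene. At 3 or 4 libraries per group these tests do not show that the arms were alike.

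In the thymus 8 of the 10 genes passed the filter on low counts. Fosb had 0 to 2.48 CPM and Atf3 0 to 1.82 CPM, and neither was tested. The 10 genes together took 0.0544 to 0.1% of all counts. Thymus and periphery differ in strain, age and sort and were not compared by a test.

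Zfp36 was higher in P2 than in P1 at each age. It had 98.5, 94.1 and 61.7 CPM in P2 against 50.6, 50.9 and 50.9 CPM in P1 at D5, 113, 90.0 and 118 CPM against 70.2, 56.7 and 55.5 CPM at D12, and 103, 104 and 74.1 CPM against 57.7, 51.2 and 60.1 CPM at D49. The groups did not overlap at any of the 3 ages. On the log2 scale the difference was 0.77 ± 0.17 at D5 (edgeR adjusted p = 0.00276), 0.68 ± 0.17 at D12 (0.00296) and 0.91 ± 0.17 at D49 (0.000515). Over all genes tested, 15.2%, 41.4% and 29.5% were called in either direction at these ages, and of the 8 genes 2, 3 and 2 were called.

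Dusp1 was lower in P2 than in P1 at the early ages and differed with age in both. It had 87.1, 96.8 and 50.6 CPM in P2 against 198, 135 and 150 CPM in P1 at D5, 109, 100 and 93.6 CPM against 224, 237 and 272 CPM at D12, and 243, 175 and 200 CPM against 234, 202 and 191 CPM at D49. The progenitors were apart at D5 and D12 and overlapped at D49. The log2 fold change of P2 against P1 was -1.01 ± 0.19 at D5 (edgeR adjusted p = 0.000593), -1.41 ± 0.19 at D12 (6.7e-06) and 0.15 ± 0.18 at D49 (0.581). In P2, D49 exceeded D5 by 1.53 ± 0.19 (5.58e-06, with 25.8% of all genes called) and D12 by 1.2 ± 0.19 (0.000501, 15.0%). The share against D5 stands for 3788 genes, which became 6020 without P2 library 1 of D49 and 1099 with only the libraries compared. In P1, D12 exceeded D5 by 0.73 ± 0.18 (0.0113, 18.3%), a call lost without P1 library 2 of D5 (0.61, 0.067). Whether the change with age differed between P2 and P1 was not called for any of the 8 genes. These were 16 tests over D12 and D49 against D5 (lowest edgeR adjusted p 0.0564). Of them 2 had an unadjusted p under 0.05, beside 3041 of all 14696 genes at D12 and 2098 at D49. By adjusted p, 3.67% and 0.374% of all genes were called at D12 and D49. These shares stand for 540 genes at D12, which became 187 without P2 library 1 of D12, and 55 genes at D49, which became 3 without P2 library 3 of D5 and 1205 without P2 library 1 of D49. DESeq2 called 1, Dusp1 at D49 (1.18, 0.00412), and limma voom called 2, Dusp1 at D49 (1.03, 0.0418) and Ier2 at D12 (-1.65, 0.0249). Without P2 library 1 of D49, edgeR called Dusp1 at D49 (1.08, 0.0148).

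Jun had its lowest mean at D12 in both progenitors. It had 3.72, 10.1 and 2.97 CPM in P2 at D5, 1.34, 0 and 0 CPM at D12 and 12.9, 1.78 and 11.1 CPM at D49, and P1 had 3.91, 8.64 and 2.44 CPM, 0, 0.672 and 2.32 CPM, and 7.56, 4.10 and 3.65 CPM at these ages. The P2 libraries held 106 Jun counts at D49 and 6 at D12, a ratio after scaling to library size of 23.3 (exact 95% interval 10.4 to 65.0, counting error only). In edgeR, D49 exceeded D12 in P2 (adjusted p = 0.015), and the call was lost without P2 library 2 (0.0678) or 3 (0.0587) of D12. D12 against D5 was not called in P2 (adjusted p = 0.059, 5.16% of all genes called), where DESeq2 (0.0118) and limma voom (0.00764) called it lower, as did edgeR without P2 library 1 of D12 (0.0202).

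Fosl2 had 17.3, 12.4 and 15 CPM in P2 at D5, 17.4, 25.4 and 27.4 CPM at D12 and 15.8, 8.00 and 3.82 CPM at D49. It was lower at D49 than at D12 (-1.24 ± 0.39, edgeR adjusted p = 0.0414), and the lowest libraries were 2 and 3 of D49, those with more detected genes and macrophage markers. The value was -0.56 (adjusted p = 0.652) without both of these libraries, and the call was also lost without any 1 D12 library or D49 library 2 or 3 (0.0535 to 0.143). Junb, at 168 to 298 CPM in P2 and 176 to 236 CPM in P1, was higher in P2 at D49 (0.40 ± 0.14, 0.031), a call lost without P1 library 2 or 3 or P2 library 1 or 2 of D49 (0.0555 to 0.149) and without both P2 libraries 2 and 3 (0.48, 0.0633).

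Fos had 25.4, 20.7 and 9.50 CPM in P2 at D5, 25.5, 15.8 and 14.8 CPM at D12 and 16.3, 3.85 and 4.23 CPM at D49, and P1 had 12.5, 18.6 and 10.7 CPM, 6.68, 10.3 and 2.11 CPM, and 18.6, 4.55 and 12.5 CPM. The only difference called was P2 above P1 at D12 (1.40 ± 0.56, edgeR adjusted p = 0.0491), where the groups did not overlap. It was lost without P1 library 1 or 3 or any P2 library of D12 (0.057 to 0.174), and in DESeq2 (0.0537). Without P2 library 1 of D49, Fos was called lower at D49 than at D5 (-1.99, 0.0137) and D12 (-1.97, 0.0168) in P2. Jund (2.34 to 8.86 CPM) and Ier2 (61.7 to 322 CPM) gave no call with all thymus libraries in the fit. Ier2 was called lower at D49 than at D12 in P1 with only the libraries compared (-0.66, edgeR adjusted p = 0.000279) and lower in P2 than in P1 at D12 without P2 library 3 of D12 (-1.14, 0.0333), and limma voom called Jund higher in P2 at D5 (0.95, 0.0368). Of the 8 genes, none was called between D49 and D5 in P1 (10.6% of all genes called, 0 at an unadjusted p under 0.05, 0 in DESeq2 and limma voom) or between D49 and D12 in P1 (23.7%, 1 at an unadjusted p under 0.05, 0 in DESeq2 and 1 in limma voom, Jun). Of all 14696 genes, 3395 had an unadjusted p under 0.05 between D49 and D5 in P1, and 5489 between D49 and D12.

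**Figure D5:**
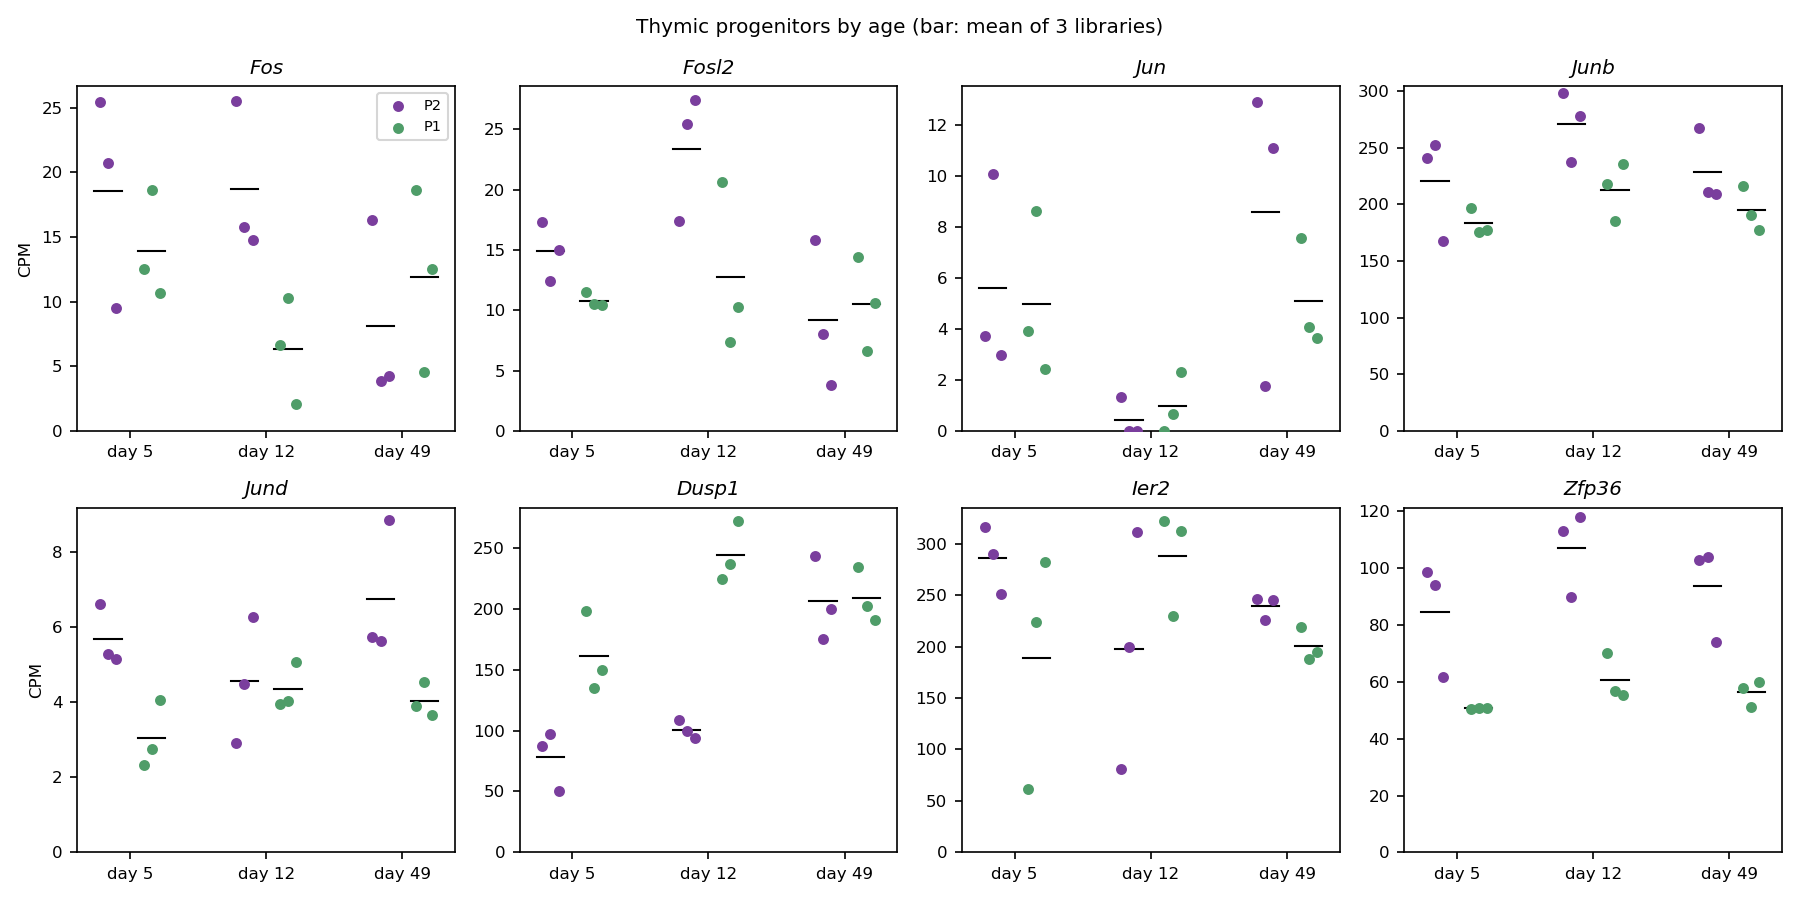
CPM of the 8 genes tested in the thymus at D5, D12 and D49, with P2 (purple) left of P1 (green), 1 point per library and a bar at the group mean. Zfp36 lies higher in P2 at each age, and Dusp1 lies lower in P2 at D5 and D12 and at a like level at D49.

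Genes of the same response outside the 10 were counted from lists drawn up by role, against spleen in the PBS arm. Rose and fell here mean an edgeR adjusted p under 0.05, against the shares of all genes called higher given above. The shares of all genes called lower were 7.79% in lung, 7.85% in liver, 12.5% in ear skin and 6.27% in VAT in the PBS arm, and 6.15%, 5.08%, 11.6% and 3.15% in the DT arm. Of 28 other immediate early genes, 14 rose and 1 fell in lung, 16 rose and 5 fell in liver, 15 rose and 5 fell in ear skin, and 18 rose and 2 fell in VAT, with median log2 fold changes of 1.29, 1.44, 1.92 and 2.17. In the DT arm the counts were 15 and 2, 16 and 4, 15 and 5, and 17 and 1. Nr4a1, an orphan nuclear receptor gene induced by the T cell receptor, averaged 3450 ± 738 CPM in ear skin and 117 ± 38.4 CPM in spleen (SD, n = 3 each, log2 fold change 5.01). Ppp1r15a, a stress-induced phosphatase regulator, averaged 1170 ± 368 CPM in VAT (n = 4) and 54.4 ± 33.9 CPM in spleen (n = 3, 4.46). Tnfaip3, an inhibitor of NF-kappaB signalling, averaged 3130 ± 1110 CPM in liver and 99.6 ± 20.2 CPM in spleen (n = 3 each, 5.01). Of 11 other dual specificity phosphatases, 7 rose and 2 fell in lung and in liver, and 6 rose and none fell in ear skin and in VAT. Dusp4, a nuclear MAP kinase phosphatase, averaged 533 ± 48.3 CPM in liver and 15.5 ± 9.52 CPM in spleen (n = 3 each, 5.16).

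Of the 23 measured of 25 other zipper proteins that can meet AP-1, 6 rose and 1 fell in lung, 9 rose and 2 fell in liver, 7 rose and 1 fell in ear skin, and 7 rose and 1 fell in VAT. Crem, a cAMP-responsive zipper gene, averaged 814 ± 273 CPM in lung and 26.0 ± 3.24 CPM in spleen (n = 3 each, log2 fold change 5.01), and Bach2, a repressor that competes with AP-1, was lower in ear skin (-3.14) and VAT (-2.91). Of 24 kinases and transcription factors that carry the signal to Fos and Jun, 5 rose and 1 fell in lung, 1 rose and none fell in liver, 3 rose and 2 fell in ear skin, and 3 rose and 1 fell in VAT. Of 10 other proteins that bind AU-rich elements, 1 rose and 1 fell in lung, 3 rose and 2 fell in liver, 2 rose and none fell in ear skin, and 3 rose and 2 fell in VAT. The difference between these lists was not tested.

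Heat shock genes, which mark protein stress, were set beside the 10 genes. Of 13, 1 rose in lung, 9 in liver, 5 in ear skin and 4 in VAT, and 1 fell in ear skin. The inducible chaperone gene Hspa1a averaged 554 ± 345 CPM in liver, 656 ± 259 CPM in ear skin and 61.4 ± 83.1 CPM in VAT, against 0.196 ± 0.339 CPM in spleen (SD, n = 3, 4 for VAT). By these means Hspa1a was lower in VAT than in ear skin and liver, but it is 1 of the 13 genes. Together the 13 summed to 6080 to 7980 CPM in PBS VAT, 5890 to 7710 CPM in ear skin and 7610 to 15700 CPM in liver. The sums were 4610 to 7360 CPM in PBS lung and 4340 to 6130 CPM in PBS spleen, so VAT, ear skin and lung overlapped spleen. The order of tissues in these levels was not tested. The part of heat shock or of digestion in the levels of the 10 genes was not tested.

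The genes most like Fos and Junb were found among 8574 genes averaging 10 CPM or more, by Pearson correlation of log2 CPM over the 16 group means, which share strain and tissue. For Fos these were Fosb (0.986), Cxcl2 (0.968), Pcyt1a (0.965), Sytl2 (0.959), Map4 (0.957), Csrnp1 (0.952), Sytl3 (0.949) and L1cam (0.947). For Junb they were Atf3 (0.984), Ppp1r15a (0.981), Areg (0.981), Sytl2 (0.971), Cdkn1a (0.970), Lgals3 (0.968), S100a13 (0.968) and Mt1 (0.968). Fosb and Atf3 are the only 2 of the 10 genes in these lists. With a smaller prior count, the value added to counts before the logarithm, 7 of the 8 genes for Fos and 5 of the 8 for Junb were kept. Among the deviations of the 50 libraries from their group means, Junb was most like Zfp36 (0.862), Nfkbia (0.795), Dusp1 (0.789) and Nr4a3 (0.782), and Fos was most like Rgs1 (0.654), Ensa (0.629), Sgms1 (0.628) and Acvr2a (0.610). Jund did not reach 10 CPM on average, and of the others Ier2 was the least like Fos over the group means (0.328).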

How the data were processed

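The authors deposited 1 table of raw read counts per gene symbol, with no normalisation. Per the submitters' processing notes, STAR 2.7.3a and featureCounts were used with build mm10. Which annotation and strand setting were used, and how multiply mapping reads were treated, is not given in the sources used here, so counts of overlapping genes are uncertain. Reads carry no molecular identifiers in the labels' protocols, so counting intervals cover counting error only.

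Genes were tested in R 4.3.3 by the quasi-likelihood F test of edgeR 4.0.16 (two-sided, TMM scaling, filterByExpr with a minimum count of 10 and a minimum total of 15, Benjamini-Hochberg adjustment at 0.05 over all genes tested). The 32 peripheral libraries were fitted together (17731 genes), the 18 thymus libraries together (14696 genes), and DT against PBS within each tissue (11962 to 12653 genes). SE is that of the log2 fold change. Replicates of a group were never as alike as sampling noise would make them (chi-square over its degrees of freedom 3.61 to 66.5), so all were kept. Ratios against groups with few counts have exact 95% intervals. Gene positions, exon overlaps and 3′ UTRs come from GENCODE M21, and promoters from the RefSeq table of GRCm38.p6.

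The 10 genes and the gene lists were chosen with earlier results of these data known. Genes named from other lists are up to 4 per list and comparison with the smallest adjusted p among called genes averaging 10 CPM or more. Likeness was ranked on log2 CPM with a prior count of 2. The fits were also run on simulated counts, in which a small set of genes was changed by known folds and all genes had the same spread. The simulation had no outlier libraries and no broad shift of genes between tissues, so it is no test of the calls made here. The alternatives were DESeq2 1.42.0, limma 3.58.1 voom with quality weights, relative log expression size factors, no filter, only the libraries compared, a replicate block and leaving out libraries.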

Additional observations from a re-analysis of the deposited data

Results flagged for a closer look

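Fos in VAT PBS library 4 had 924 CPM, against 2960 to 3200 CPM in the other 3 libraries of the group, and its gap to the next library was too large a part of the group's range by Dixon's test at 95%. Of 20 gene and group combinations with 4 libraries (the 10 genes in VAT DT and VAT PBS), this was the 1 that passed. That is about as many as chance would give in independent tests. These tests were not independent, since single VAT libraries moved across most of the 10 genes together. Fos in VAT stayed called above spleen without it, but leaving out the lowest VAT library widens that difference, so this does not test the call.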

How the results depend on the processing

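Over 4156 results of the 10 genes under an alternative, 3955 kept their direction and their side of the threshold, 98 lost a call, 103 gained one and 0 reversed. Counts of called genes against spleen were 34 in the PBS arm (33 to 34 when single libraries were left out) and 36 in the DT arm (31 to 36). Both include Fosb and Atf3, which passed the filter through the other tissues and so had to differ. For the other 8 genes the main counts in lung, liver, ear skin and VAT were 6, 6, 6 and 8 in PBS. In DT they were 7, 7, 6 and 8. The counts were 7 for P2 against P1 (5 to 8), 27 for the other pairs of tissues (21 to 29) and 0 for tissue by arm (0 to 0). Age in P1 gave 1 call (0 to 2 when single libraries were left out), 2 in DESeq2, 4 in limma voom, 5 without a filter, 5 with only the libraries compared, 2 with relative log expression size factors and 6 with a replicate block. Age in P2 gave 4 calls (2 to 8) and 8 without a filter. DT against PBS gave 0 calls (0 to 0) and 3 without a filter. The interaction of age and progenitor gave 0 calls (0 to 1), 1 in DESeq2, 2 in limma voom, 2 without a filter, 1 with relative log expression size factors and 1 without both P2 libraries 2 and 3 of D49. The cause of these moves was not tested. Same-numbered libraries did not deviate together (correlations -0.218 to 0.322, in no comparison all over 0.1), so the numbers were not taken to pair them. With a replicate block, 186 of 210 results were as in the fit without it, 5 lost a call and 19 gained one. Over all genes, D49 against D12 in P2 gave 2202 calls, 57 with the block, 83 with only the libraries compared and 5299 without P2 library 1 of D49, and D49 against D5 in P2 gave 3788 calls and 751 with the block. Lung against spleen in the PBS arm gave 2825 calls and 885 with the block, and DT against PBS in VAT 15 and 347 without a filter. Atf3 and Fosb in spleen, and Jun at D12, rest on few counts, so the size of their differences is limited by depth.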

Other observations

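The thymus libraries were also set against the heat shock list. Of the 10 heat shock genes measured there, none was called higher in P2 than in P1, and 6 were called lower at D5, 8 at D12 and 6 at D49 (edgeR adjusted p under 0.05). Of all genes tested, 8.40%, 23.8% and 12.9% were called lower in P2 at these ages, and 6.79%, 17.6% and 16.6% higher. Dusp1 was lower in P2 at D5 and D12 as well, whereas Zfp36 was higher in P2 at each age.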
